A study of Mus musculus with 16 samples.

Results

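The genes described are 10 enzymes and cofactors of antioxidant defence, chosen by symbol: *Sod1*, *Cat*, *Prdx2*, *Gpx1*, *Gpx4*, *Txn1*, *Gclc*, *Gclm*, *Nqo1* and *Hmox1*. All 10 were among the 15386 genes of the RNA-seq table and among the 13490 genes of the m6A table. RNA-seq had been performed on 3 libraries of control CFU-E cells and 3 labelled as CFU-E Kit-lo cells deficient in *Mettl3*. The cells had been sorted from the bone marrow of adult C57BL/6 mice. The study used males and females, and the sex of the mice behind each library is not given in the sources used here. The m6A capture had been performed on control CFU-E cells, with 2 input and 2 immunoprecipitated (IP) libraries. CFU-E cells are Kit+ CD71+ erythroid progenitors that come before proerythroblasts, while CFU-E Kit-lo names the fraction of the mutant CFU-E gate with very little Kit on the surface. The mutant mice were *Mettl3* fl/fl *EpoR* Cre/-, in which Cre is driven from *EpoR* in erythroid cells and in macrophages of erythroblastic islands. The study also reported *EpoR* expression in hematopoietic stem cells and a partial fall of *Mettl3* mRNA in the stem and early progenitor cells of these mice. The labels call the other mice control and give no genotype for them, and the alleles these mice carried are not given in the sources used here. The groups of the RNA-seq differed in genotype and in Kit gate, and these cannot be told apart. The labels do not say that the libraries of a group came from separate mice, so that p-values measure the spread between these libraries.

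Oxygen carried by hemoglobin oxidizes heme iron at a slow rate and releases superoxide, and iron handled for heme synthesis can turn hydrogen peroxide into radicals, so that red cells and their precursors hold a large stock of peroxide-removing enzymes. Superoxide dismutase turns superoxide into hydrogen peroxide, which catalase, peroxiredoxins and glutathione peroxidases break down. Peroxiredoxins are reduced again by thioredoxin and glutathione peroxidases by glutathione, and both draw on NADPH. Prdx2 is among the most abundant proteins of the mature red cell. m6A is a methyl mark on adenosine that the Mettl3 enzyme places on mRNA, most often within the letters GGACT or close relatives of them.

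RNA-seq totals ran from 17429262 to 21329242 estimated counts per library and m6A totals from 19421059 to 37142742. Over genes, Pearson's r of log2 CPM in RNA-seq was 0.981 to 0.992 for libraries of the same group and 0.953 to 0.958 across groups. *Kit*, the receptor by which the cells had been gated, was lower in the CFU-E Kit-lo libraries, with a log2 fold change of -3.44 ± 0.153 (SE) at an adjusted p of 4.3e-07 in the edgeR test described next. *Mettl3* mRNA was at 115, 123 and 130 CPM in control CFU-E and at 117, 127 and 107 CPM where the label says *Mettl3* was deleted. Its log2 fold change of -0.07 ± 0.096 (SE) had an adjusted p of 0.63 in the edgeR test with Benjamini-Hochberg adjustment, so that the count per gene did not show the deletion. By contrast, the study reported loss of *Mettl3* mRNA, by qRT-PCR, and of its protein in erythroid cells of the mutant mice. The name CFU-E Kit-lo libraries is used for the gate, and every direction given for the genotype rests on the labels.

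Values are TMM-normalized CPM, which are counts scaled to library size, and folds come from edgeR's quasi-likelihood test over 11979 RNA-seq genes, with Benjamini-Hochberg adjustment over all of them. A gene was a differentially expressed gene (DEG) where its fold change was at least 1.5 (0.58 on the log2 scale) and its adjusted p-value was under 0.05. By this rule 12.1% of the tested genes were higher and 9.83% lower in the CFU-E Kit-lo libraries. At an adjusted p under 0.05 alone, 17.6% were higher and 16.9% lower. Of the 10 antioxidant genes, 1 was a DEG, *Gpx1*, which rose. On adjusted p alone 3 rose (*Gpx1*, *Prdx2* and *Gclc*), 2 fell (*Nqo1* and *Sod1*) and 5 did not pass (*Cat*, *Gpx4*, *Txn1*, *Gclm* and *Hmox1*). The median log2 fold change of the 10 genes was 0.11, beside 0.01 over all tested genes. In 5 of the 10 genes every library of one group lay beyond every library of the other, which held for 47.5% of all tested genes, so that the share was near that of the whole table.

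The promoters of 4 genes that passed on adjusted p are shown, of which 2 rose and 2 fell. *Gclc* also passed and rose, but no promoter sequence was matched to it or to *Hmox1*. Each runs from 250 bases before to 50 bases after the RefSeq transcription start (GRCm38.p6). Capitals mark matches on either strand to CCNCNCCC, the box bound by KLF factors such as the erythroid factor KLF1, and to TGACNNNGC, the core of the antioxidant response element bound by NRF2.
Prdx2 promoter, chr8:84969372-84969671, plus strand: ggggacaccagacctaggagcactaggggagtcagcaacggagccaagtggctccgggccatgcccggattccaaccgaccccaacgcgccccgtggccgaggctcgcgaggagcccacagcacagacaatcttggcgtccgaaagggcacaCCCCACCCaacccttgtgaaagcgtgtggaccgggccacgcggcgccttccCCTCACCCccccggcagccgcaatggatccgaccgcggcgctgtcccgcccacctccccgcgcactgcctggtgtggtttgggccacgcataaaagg
Gpx1 promoter, chr9:108338830-108339129, plus strand: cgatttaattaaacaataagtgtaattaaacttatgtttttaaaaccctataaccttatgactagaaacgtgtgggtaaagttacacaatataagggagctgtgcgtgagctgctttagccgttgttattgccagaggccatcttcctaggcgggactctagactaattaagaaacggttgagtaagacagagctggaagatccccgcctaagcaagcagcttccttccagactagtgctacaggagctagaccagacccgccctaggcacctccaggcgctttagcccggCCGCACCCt
Nqo1 promoter, chr8:107403156-107403455, minus strand: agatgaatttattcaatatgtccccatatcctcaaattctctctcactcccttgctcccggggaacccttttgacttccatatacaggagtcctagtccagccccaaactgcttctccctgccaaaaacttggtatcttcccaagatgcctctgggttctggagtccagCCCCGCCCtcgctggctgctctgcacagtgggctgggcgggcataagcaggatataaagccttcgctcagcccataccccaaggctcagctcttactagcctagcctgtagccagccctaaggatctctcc
Sod1 promoter, chr16:90220512-90220811, plus strand: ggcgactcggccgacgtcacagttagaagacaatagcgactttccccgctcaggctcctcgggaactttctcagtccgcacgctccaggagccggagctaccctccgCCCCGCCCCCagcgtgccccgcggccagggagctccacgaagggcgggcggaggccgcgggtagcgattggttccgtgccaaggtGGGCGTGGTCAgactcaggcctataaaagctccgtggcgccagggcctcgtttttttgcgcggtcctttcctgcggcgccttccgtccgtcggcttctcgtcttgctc

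The CCNCNCCC letters occurred 2 times in the *Prdx2* promoter, starting 98 and 47 bases before the start site, once in that of *Gpx1*, 41 bases after it, once in that of *Nqo1* and 3 times in that of *Sod1*, where neighbouring matches overlap. Over all 32817 promoter windows of this length 49.5% held this match. TGACNNNGC was found in the *Sod1* window as GCGTGGTCA, which reads on the opposite strand and overlaps a CCNCNCCC match, and in none of the other 3. Of the 8 members with a promoter sequence, *Gclm* was the only other one with a match, GCACCGTCA, and 12.4% of all windows held one. The GATA letters AGATAA or TGATAA were in windows of *Gpx4* and in those of no other member, with AGATAA in 11.2% and TGATAA in 9.06% of all windows. These matches describe letters in these windows and carry no measurement of binding.

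*Gpx1* (ENSMUSG00000063856, GRCm38 chr9:108338903-108340343, plus strand) encodes the cytosolic selenium-containing glutathione peroxidase. It was at 87.2, 90.5 and 71.1 CPM in control CFU-E and at 139, 123 and 139 CPM in the CFU-E Kit-lo libraries. All CFU-E Kit-lo libraries were above all control libraries. The rise was 1.61-fold, a log2 fold change of 0.69 ± 0.113 (SE) at an adjusted p of 0.0012 (edgeR with Benjamini-Hochberg adjustment). Without control replicate 3, the lowest library, the log2 fold change was 0.58 with an adjusted p of 0.0071 in edgeR, just under the fold that defines a DEG. A test against a fold of 1.5 itself gave an adjusted p of 0.38 in edgeR.

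*Prdx2* (ENSMUSG00000005161, chr8:84969587-84974834, plus strand) encodes the peroxiredoxin typical of red cells. It was at 1350, 1360 and 1326 CPM in control CFU-E and at 1763, 1897 and 2165 CPM in the CFU-E Kit-lo libraries, without overlap. The rise was 1.44-fold, a log2 fold change of 0.53 ± 0.084 (SE) at an adjusted p of 0.00095 (edgeR with Benjamini-Hochberg adjustment), and thus under the fold that defines a DEG. It was past that fold, at 0.59, without CFU-E Kit-lo replicate 1, the lowest of its group. *Prdx2* shares 177 exonic bases (5.8%) with *Rnaseh2a* on the opposite strand and also overlaps *Junb*, and whether reads were counted by strand is not given in the sources used here.

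*Cat* (chr2:103453849-103485160, minus strand) encodes catalase. It was at 276, 292 and 298 CPM in control CFU-E and at 307, 293 and 277 CPM in the CFU-E Kit-lo libraries, and the groups overlapped. The log2 fold change was 0.02 with a 95% interval of -0.15 to 0.19 (adjusted p = 0.89, edgeR with Benjamini-Hochberg adjustment), an interval that lies within the fold of a DEG on both sides. Its sign turned under some alternatives, and a direction is not given.

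*Sod1* (ENSMUSG00000022982, chr16:90220754-90226329, plus strand) encodes the cytosolic copper-zinc superoxide dismutase. It was at 40.3, 36.1 and 29.9 CPM in control CFU-E and at 28.1, 24.8 and 23.6 CPM in the CFU-E Kit-lo libraries, which were all below the lowest control library. The fall was -0.47 on the log2 scale ± 0.15 (SE) at an adjusted p of 0.033 (edgeR with Benjamini-Hochberg adjustment). The adjusted p rose to 0.14 without control replicate 1, 0.09 without control replicate 2, 0.11 without CFU-E Kit-lo replicate 2 and 0.093 without CFU-E Kit-lo replicate 3 (edgeR), and to 0.064 with library size as the sole scaling. Without control replicate 3 the log2 fold change was -0.59 and *Sod1* was a DEG.

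*Gpx4* (chr10:80047166-80056439, plus strand) encodes the glutathione peroxidase that reduces lipid peroxides within membranes and opposes ferroptosis. It was at 240, 238 and 217 CPM in control CFU-E and at 262, 236 and 276 CPM in the CFU-E Kit-lo libraries, and the groups overlapped. The log2 fold change was 0.16 with a 95% interval of -0.04 to 0.35 (adjusted p = 0.2, edgeR with Benjamini-Hochberg adjustment). The annotation holds 1 named pseudogene of *Gpx4*, with which its reads could be shared.

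Glutathione is made by a ligase of a catalytic subunit, Gclc, and a modifier subunit, Gclm. *Gclc* (chr9:77754535-77794485, plus strand) was at 17, 19.7 and 16.8 CPM in control CFU-E and at 23.5, 27.6 and 23.5 CPM in the CFU-E Kit-lo libraries, without overlap. Its log2 fold change was 0.48 ± 0.148 (SE) at an adjusted p of 0.031 (edgeR with Benjamini-Hochberg adjustment). That adjusted p was 0.11, 0.12 and 0.091 without control replicate 1, control replicate 3 and CFU-E Kit-lo replicate 2 in turn. *Gclm* (ENSMUSG00000028124, chr3:122245557-122270732, plus strand) was at 80.9, 93.3 and 84.2 CPM in control CFU-E and at 76.1, 93.2 and 102 CPM in the CFU-E Kit-lo libraries. The groups overlapped, and its log2 fold change of 0.07 had a 95% interval of -0.20 to 0.34 (adjusted p = 0.71, edgeR with Benjamini-Hochberg adjustment). The difference between the subunits' changes was not tested.

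*Txn1* (chr4:57943373-57956411, minus strand) encodes the cytosolic thioredoxin that reduces peroxiredoxins. It was at 154, 158 and 143 CPM in control CFU-E and at 150, 147 and 148 CPM in the CFU-E Kit-lo libraries. All CFU-E Kit-lo values lay inside the control range, and the log2 fold change of -0.03 had a 95% interval of -0.21 to 0.15 (adjusted p = 0.79, edgeR with Benjamini-Hochberg adjustment).

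*Nqo1* and *Hmox1* are textbook targets of NRF2 that detoxify quinones and break down heme. *Nqo1* (ENSMUSG00000003849, chr8:107388225-107403206, minus strand) was at 57.5, 68.6 and 63.2 CPM in control CFU-E and at 43.0, 45.0 and 39.0 CPM in the CFU-E Kit-lo libraries, which were all lower. The log2 fold change was -0.57 ± 0.116 (SE) at an adjusted p of 0.0037 (edgeR with Benjamini-Hochberg adjustment), next to the fold that defines a DEG. It passed that fold, at -0.64, -0.59 and -0.60, without control replicate 1, CFU-E Kit-lo replicate 1 and CFU-E Kit-lo replicate 2 in turn, and also with upper quartile scaling and with no filter. *Hmox1* (chr8:75093621-75100589, plus strand) was nearly silent, with 13 to 42 counts per library. It was at 1.58, 0.74 and 2.4 CPM in control CFU-E and at 1.87, 1.84 and 1.56 CPM in the CFU-E Kit-lo libraries. Its log2 fold change of 0.16 had a 95% interval from -0.95 to 1.27 (adjusted p = 0.84, edgeR with Benjamini-Hochberg adjustment), an interval that spans a change of DEG size in either direction.

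**Figure D1:**
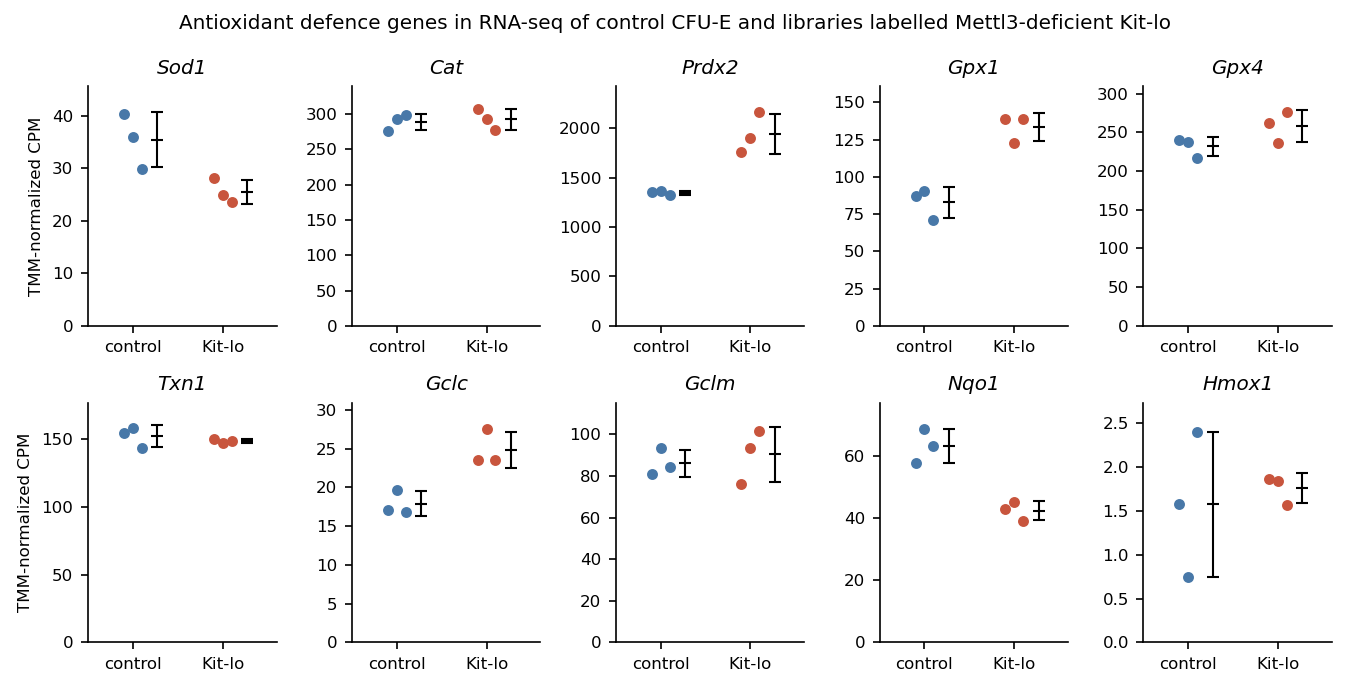
TMM-normalized CPM (vertical axes, linear from 0, a scale for each gene) of the 10 antioxidant defence genes in 3 control CFU-E libraries (blue) and 3 CFU-E Kit-lo libraries, labelled as deficient in *Mettl3* (red), with the mean and SD beside the points. The groups lie apart for *Prdx2*, *Gpx1* and *Gclc*, higher in CFU-E Kit-lo, and for *Sod1* and *Nqo1*, lower in CFU-E Kit-lo.

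Levels were compared between genes as TPM, computed from counts per kilobase of mean annotated transcript length and scaled to the same sum in each library. In control CFU-E the order was *Prdx2*, at 1724 ± 45.6 TPM (SD, n = 3), then *Gpx4* at 487 ± 32.3, *Cat* at 321 ± 11.2, *Txn1* at 272 ± 17.9 and *Gpx1* at 187 ± 25.7 TPM. *Sod1* followed at 104 ± 16.4 TPM, *Nqo1* at 76.5 ± 7.09, *Gclm* at 49.2 ± 4.07, *Gclc* at 9.82 ± 1.0 and *Hmox1* at 1.88 ± 0.97 TPM. No neighbours in this order overlapped over the control libraries. *Prdx2* ranked 56th of 15376 genes by level in control CFU-E and 32nd in CFU-E Kit-lo. In CFU-E Kit-lo *Gpx1*, at 317 ± 20.2 TPM (SD, n = 3), stood above *Txn1*, at 281 ± 12.3, and overlapped with *Cat*, at 343 ± 30.3, while *Nqo1* and *Gclm* overlapped, both with a mean of 54.3 TPM. These orders and ranks are those of the RNA-seq protocol. In the m6A input of control CFU-E, not scaled to length, *Gpx1* averaged 3501 CPM and *Prdx2* 2177 CPM. There *Gpx4* averaged 1131, *Sod1* 1073 and *Cat* 42.9 CPM.

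In the make-up of the peroxiredoxin family the shares of *Prdx5* overlapped between the groups and those of the other 5 genes did not. As a share of the mRNA of *Prdx1* to *Prdx6*, per kilobase, *Prdx2* made up 32.9%, 33.5% and 31.8% in control CFU-E and 51.7%, 54.7% and 55.3% in the CFU-E Kit-lo libraries. The difference of the means was 21.2 percentage points, with an exact two-sided permutation p of 0.1, the smallest that 3 against 3 libraries can give. *Prdx6*, a peroxiredoxin that also acts on phospholipids, went from a mean share of 39.7% ± 0.70 (SD, n = 3) to 21% ± 0.79, and *Prdx1*, the other major cytosolic form, from 12.3% ± 0.40 to 9.35% ± 0.36. In the edgeR test *Prdx6* fell from 1870, 1798 and 1909 CPM to 847, 819 and 904 CPM, a log2 fold change of -1.12 ± 0.071 (SE). By this RNA-seq measure *Prdx6* was the most abundant family member in control CFU-E and *Prdx2* in CFU-E Kit-lo. In the m6A input of control CFU-E, not scaled to length, both genes overlapped. *Prdx6* was at 2527 and 1996 CPM there, and *Prdx2* at 2420 and 1934 CPM. The shares of *Prdx3*, *Prdx4* and *Prdx5* were 4.81%, 2.36% and 8.05% in control CFU-E and 5.65%, 2.79% and 7.33% in CFU-E Kit-lo on average.

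**Figure D2:**
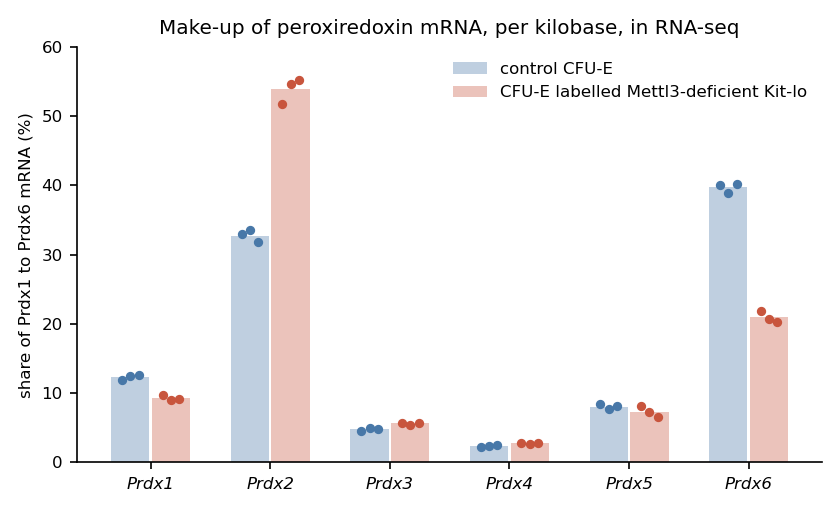
Share of each gene in the summed mRNA of *Prdx1* to *Prdx6* (vertical axis, percent, counts per kilobase), with a point for each library and a bar for the mean, in control CFU-E (blue, n = 3) and CFU-E Kit-lo, labelled as deficient in *Mettl3* (red, n = 3). *Prdx2* goes from a mean of 32.7% to 53.9% and *Prdx6* from 39.7% to 21%.

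Of the sum of *Gpx1* and *Gpx4* mRNA, per kilobase, *Gpx1* made up 28%, 28.9% and 25.9% in control CFU-E and 36.2%, 35.7% and 35% in CFU-E Kit-lo. The difference was 8.01 percentage points (exact two-sided permutation p = 0.1, the smallest possible). These shares hold for the RNA-seq protocol. In the m6A input of control CFU-E, not scaled to length, *Gpx1* was the higher of both. It was at 3189 and 3814 CPM there, and *Gpx4* at 1046 and 1215 CPM. All 10 genes together took 0.226%, 0.237% and 0.217% of the counts of the control libraries and 0.288%, 0.298% and 0.317% of those of the CFU-E Kit-lo libraries (exact two-sided permutation p = 0.1, the smallest possible). *Prdx2* alone made up 57.7% to 58.9% of the counts of the 10 genes in control CFU-E and 63.1% to 67.8% in CFU-E Kit-lo. The sum weighs genes by their level and thus mostly follows *Prdx2*, so that it does not show a rise of the 10 genes as a set. On the adjusted p of edgeR 3 of them rose, 2 fell and 5 did not pass.

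Markers of maturation moved between the same groups. Of 12 late erythroid markers 11 were tested and 8 rose, among them *Slc4a1* (band 3 of the red-cell membrane), with a log2 fold change of 7.31, *Hba-a1* (alpha globin) with 4.99 and *Alas2* (the first enzyme of heme synthesis) with 5.58, and the median of the list was 1.6. Their summed level was 1502 to 1663 CPM in control CFU-E and 3663 to 4522 CPM in CFU-E Kit-lo. *Kit*, *Myb* and *Gata2* of the 10 progenitor markers fell and *Epor*, *Klf1* and *Zfpm1* rose. The part of these markers in the changes of *Prdx2* and *Gpx1* was not tested, and in bulk libraries more cells of a kind and more RNA per cell cannot be told apart.

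Markers of other blood cells were low in both groups. The 14 macrophage markers summed to 25.1 to 30.4 CPM in control CFU-E and 17.8 to 23.2 CPM in CFU-E Kit-lo, with *C1qa* and *Cd163* lower, and *C1qc* and *Marco* were at 0 or not listed. The 12 granulocyte markers summed to 25.8 to 39.2 and 16.1 to 24.8 CPM, with *Mpo* lower and *Ngp* higher. The 10 megakaryocyte and mast cell markers summed to 6.55 to 9.78 and 9.64 to 16.1 CPM, with *Itga2b* and *Gp9* higher. The 7 B lymphocyte markers summed to 0.40 to 1.32 and 1.97 to 4.71 CPM, with *Igll1* higher. The part of these cells in the results was not tested.

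The m6A capture asked which of these transcripts the antibody retained. In this method whole mRNA is captured and read from its 3′ end with an oligo-dT primer, so that a value is the enrichment of a gene and does not place a site. Of 11447 genes tested by edgeR, 7.9% were higher and 7.86% lower in IP than in input at an adjusted p under 0.05. Of the 9 antioxidant genes that passed the filter, 0 were higher in IP and 1 was lower, *Gclm*. At an unadjusted p under 0.05 the edgeR test likewise had 0 higher, and DESeq2 called 0 higher. Over the alternatives the count higher was 0 except in the fit with replicate number as a block, which called *Cat* higher and *Gclm*, *Gpx1* and *Txn1* lower. Their median log2 fold change of IP over input was -0.41, beside 0.06 over all tested genes, and 7 of the 9 values were negative. In 5 of the 9 genes the IP and input libraries did not overlap, against 60.9% of all tested genes.

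*Gclm* was at 649 and 580 CPM in the input libraries and at 91.7 and 59.7 CPM in the IP libraries. Both IP libraries were far below both input libraries. The log2 fold change was -3.02 ± 0.269 (SE) at an adjusted p of 4.8e-05 (edgeR with Benjamini-Hochberg adjustment), which ranked 131st from the lowest of 11447 genes. *Gclm* overlaps the transcript *Gm17494* on the opposite strand over 296 exonic bases (4.71%) and the pseudogene *Gm6061* on its own strand.

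The GGACT letters of *Gclm* are shown beside those of *Prdx2*, since both transcripts hold 4 of them, and *Gclm* was called lower in IP while *Prdx2* was not called. The difference between both genes was not tested. The coding transcript of each gene in GENCODE M21 on GRCm38 was chosen by its tag as principal isoform first and then by coding length. Each line gives 10 bases on either side of the motif, in capitals, with positions counted from the transcript's first base.
Gclm coding sequence, motif at transcript positions 561 to 565: aggagcttcgGGACTgtatccaaaa
Gclm coding sequence, motif at transcript positions 795 to 799: ttgcacagctGGACTctgtgatcat
Gclm 3′ UTR, motif at transcript positions 2022 to 2026: ctgctcagttGGACTcaccacatgc
Gclm 3′ UTR, motif at transcript positions 3944 to 3948: atggttgtctGGACTtgtgagttta
Prdx2 coding sequence, motif at transcript positions 359 to 363: tcaagctttcGGACTacagagggaa
Prdx2 coding sequence, motif at transcript positions 401 to 405: tctacccactGGACTtcacttttgt
Prdx2 coding sequence, motif at transcript positions 455 to 459: accatgctgaGGACTtccgaaagct
Prdx2 coding sequence, motif at transcript positions 497 to 501: gagtgtctgtGGACTctcagttcac

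The *Gclm* transcript was 5589 bases long with a 3′ UTR of 4335 bases, where 2 of its 4 matches lay. The *Prdx2* transcript was 1612 bases long with all 4 in its coding sequence. These numbers hold for the chosen transcripts. The basic annotation has 2 transcripts of *Gclm*, with a mean length of 3296 bases, and 4 of *Prdx2*, with a mean of 1469. Counts per gene do not show which of them the cells expressed. *Cat* held 3 matches, *Gpx1*, *Gclc* and *Nqo1* 2 each and *Txn1* 1, while *Sod1*, *Gpx4* and *Hmox1* held 0. Of all tested transcripts 91.2% held at least 1 match, as did 94.0% of those higher in IP and 92.2% of those lower in IP. The median density was 0.949 matches per kilobase in genes higher in IP and 1.06 in genes lower in IP, so per kilobase the letters were about as frequent in both sets. Per transcript the median was 4 matches in genes higher in IP and 3 in genes lower in IP. Their median lengths were 4069 and 2238 bases in turn.

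*Gpx1* was at 3189 and 3814 CPM in input and at 1411 and 2305 CPM in IP, and both IP libraries were lower. Its log2 fold change of -0.91 ± 0.288 (SE) had an adjusted p of 0.055 in edgeR with Benjamini-Hochberg adjustment and did not pass. It passed under 5 of 12 alternatives, among them DESeq2 with an adjusted p of 0.01, and the adjusted p ran from 0.001 to 0.29 over them. Without IP replicate 2 its log2 fold change was -1.31 with an adjusted p of 0.0019 in edgeR, from a lone IP library that is assumed to vary like the others. *Prdx2* was at 2420 and 1934 CPM in input and at 1727 and 2068 CPM in IP, which overlapped, with a log2 fold change of -0.20 and a 95% interval of -0.75 to 0.35 (adjusted p = 0.62, edgeR with Benjamini-Hochberg adjustment).

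The other enzymes were not called. *Cat* had the highest ratio, at 54.0 and 31.7 CPM in input and 81.6 and 49.5 CPM in IP, a log2 fold change of 0.61 with a 95% interval of -0.09 to 1.32 (adjusted p = 0.21, edgeR with Benjamini-Hochberg adjustment). That adjusted p ran from 0.012, with a replicate block, to 0.78 over 12 alternatives, and passed in 1 of them. *Sod1* was at 749 and 1397 CPM in input and 1227 and 1336 CPM in IP, a log2 fold change of 0.26 (adjusted p = 0.59, edgeR with Benjamini-Hochberg adjustment). Its input libraries differed more from each other than from the IP libraries. *Gpx4* was at 1046 and 1215 CPM in input and 868 and 1183 CPM in IP, with a log2 fold change of -0.14.

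*Txn1* was at 337 and 446 CPM in input and 220 and 326 CPM in IP, with a log2 fold change of -0.52 (adjusted p = 0.19, edgeR with Benjamini-Hochberg adjustment). Without IP replicate 2 that value was -0.83 with an adjusted p of 0.045 in edgeR, and with a replicate block the adjusted p was 0.015. Over 12 alternatives it ran from 0.015 to 0.68 and passed in 2. *Gclc*, at 17.9 and 17.9 CPM in input and 14.5 and 11 CPM in IP, and *Nqo1*, at 62.9 and 63.2 CPM in input and 44.6 and 50.2 CPM in IP, had log2 fold changes of -0.48 and -0.41. Both were lower in each IP library and neither passed (adjusted p = 0.24 and 0.23, edgeR with Benjamini-Hochberg adjustment). *Hmox1* was not tested, with 9 counts in 1 input library and 0 in the other m6A libraries.

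**Figure D3:**
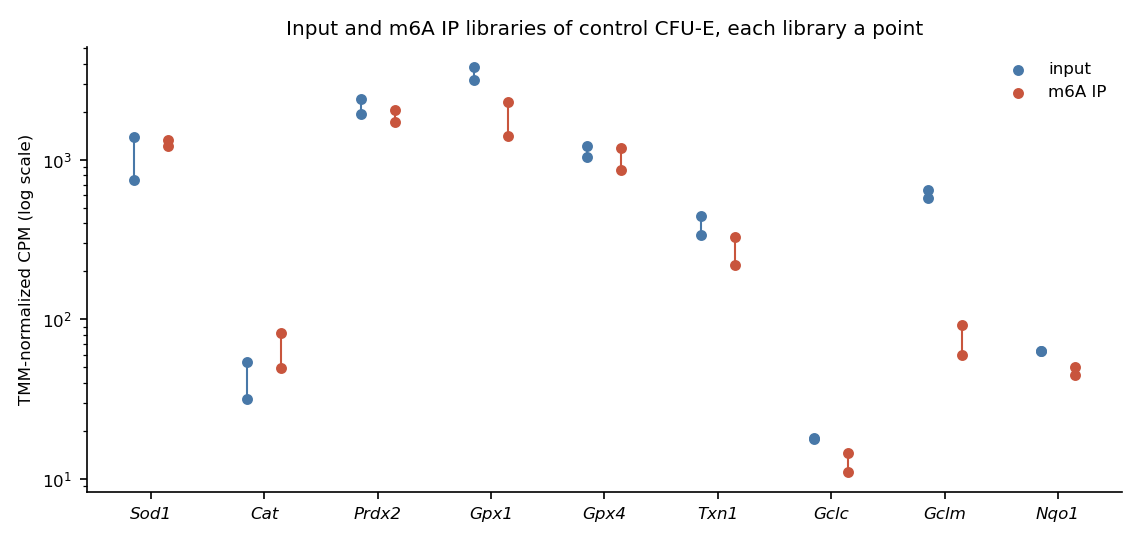
TMM-normalized CPM (vertical axis, log scale) of the 9 tested genes in 2 input (blue) and 2 m6A IP (red) libraries of control CFU-E, with a line joining libraries of a kind. *Gclm* stands out, at 649 and 580 CPM in input and 91.7 and 59.7 CPM in IP.

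**Figure D4:**
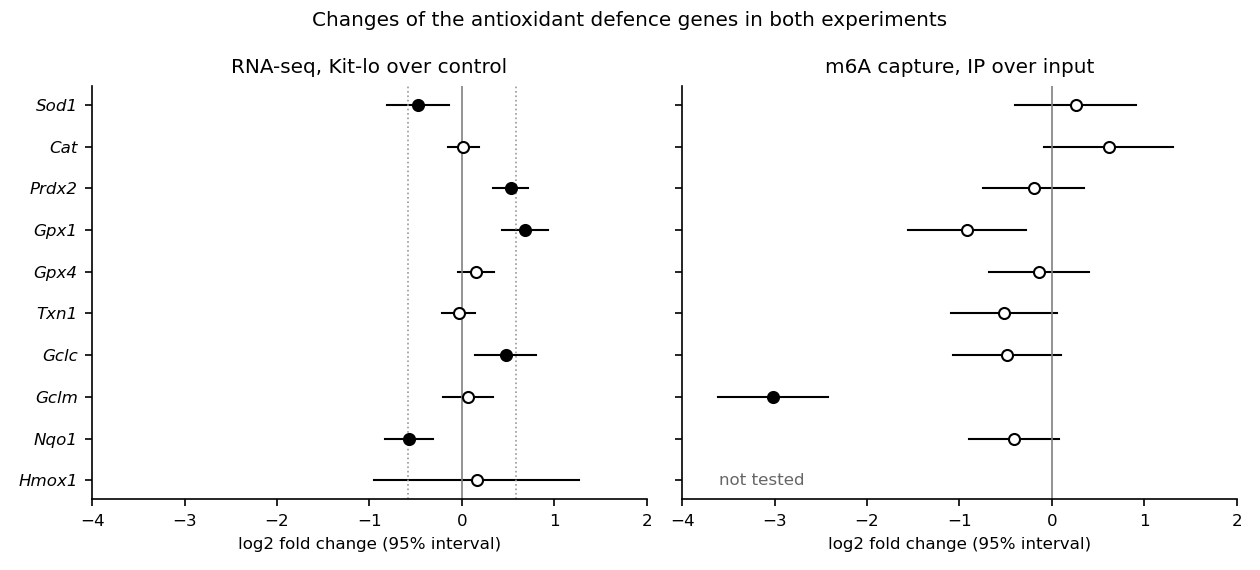
Log2 fold changes (horizontal axes) with 95% intervals of the 10 genes in RNA-seq (left) and of 9 of them in the m6A capture (right). Filled points have an adjusted p under 0.05 and dotted lines mark a fold of 1.5. In RNA-seq 3 genes rose and 2 fell on adjusted p, and in the capture *Gclm* fell.

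Control CFU-E cells were measured by both protocols, and values of the same gene are set side by side here. *Gpx1* averaged 82.9 CPM in the control RNA-seq and 3501 CPM in the m6A input, a ratio of 42.0 that was above that of 99.4% of 10773 genes tested in both. *Sod1* averaged 35.4 and 1073 CPM, a ratio of 29.9, and *Gclm* 86.1 and 615 CPM, a ratio of 7.10. *Cat* went the other way, with 289 and 42.9 CPM, while *Gclc*, at 17.9 CPM in both, and *Nqo1*, at 63.1 and 63.0 CPM, were level. The median log2 ratio of all genes was -0.60, with 5% of genes below -3.6 and 5% above 2.83. The libraries differ in protocol and were fitted separately, so no test was made.

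Further genes of antioxidant pathways were taken from 9 lists of 123 genes in all, none of them among the 10. In RNA-seq 112 were tested, and 21 (18.8%) rose and 13 (11.6%) fell as DEGs, beside 12.1% and 9.83% of all tested genes. Their median log2 fold change was 0.02.

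Of 18 genes of the peroxiredoxin and thioredoxin system, 2 rose and 2 fell. *Txnrd1*, the cytosolic thioredoxin reductase, went from 49.2, 43.9 and 44.1 CPM to 101, 71.1 and 100 CPM, a log2 fold change of 0.99 ± 0.144 (SE). *Glrx5*, a mitochondrial glutaredoxin of iron-sulfur cluster assembly, rose by 1.04 on the log2 scale at a low level in RNA-seq. In control CFU-E it was at 3.64, 6.17 and 4.29 CPM by RNA-seq, beside 1534 and 1705 CPM in the m6A input. *Prdx1* fell by 0.59 and *Prdx6* by 1.12 on the log2 scale. On the adjusted p of edgeR alone 2 of these genes were higher and 5 lower.

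Of 22 tested genes of glutathione synthesis and use, 8 rose and 1 fell, with a median of -0.03. *Mgst3*, a microsomal glutathione transferase, went from 18.6, 25.5 and 18 CPM to 71.0, 78.4 and 90.6 CPM, a log2 fold change of 1.95 ± 0.163 (SE). *Hagh*, which frees glutathione in the last step of methylglyoxal removal, rose by 1.13 on the log2 scale, and *Chac2*, which splits glutathione, by 1.06. *Ggct*, a cyclotransferase of the glutathione cycle, fell by 1.05 on the log2 scale.

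Of 13 tested genes of NADPH supply, 0 rose and 3 fell: *Pgls* of the pentose phosphate pathway with a log2 fold change of -0.79, the mitochondrial transhydrogenase *Nnt* with -0.72 and the malic enzyme *Me2* with -0.65. At an adjusted p under 0.05 alone edgeR had 0 higher and 5 lower in this list. *Hmox2*, the constitutive heme oxygenase, and the ferritin light chain *Ftl1* rose, by 0.63 and 0.59 on the log2 scale, among 7 genes of heme degradation and ferritin. *Hmox2* was at 20.9, 24.5 and 18.8 CPM in control CFU-E and at 32, 29.7 and 37.6 CPM in CFU-E Kit-lo, without overlap. Of 5 tested genes of superoxide and copper handling 0 were DEGs, and 2 were higher and 1 lower on the adjusted p of edgeR alone.

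Of 19 tested regulators, 5 rose and 1 fell, with a median of 0.16. *Foxo3*, a transcription factor of antioxidant genes in erythroid cells, went from 10.7, 13.0 and 8.01 CPM to 17.6, 30.6 and 35.2 CPM, a log2 fold change of 1.40 ± 0.269 (SE). The sestrins *Sesn2* and *Sesn1* rose by 0.91 and 0.77, the NRF2 inhibitor *Keap1* by 0.67 and the erythroid NRF2 relative *Nfe2* by 0.67 on the log2 scale. *Hif1a*, the oxygen-regulated factor, fell by 1.05 on the log2 scale. *Nfe2l2*, which encodes NRF2 itself, had a log2 fold change of -0.11 and did not pass.

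Gpx1 and Gpx4 carry selenocysteine, whose insertion needs dedicated factors. Of 8 such factors 1 fell, the kinase *Pstk* with a log2 fold change of -0.93, and 0 rose as DEGs, while 2 were higher and 2 lower on the adjusted p of edgeR alone. Of 10 tested other selenoproteins, *Selenon* rose by 1.01 and *Selenop* and *Selenos* fell by 1.66 and 0.64 on the log2 scale. Of 10 tested genes of lipid peroxidation and ferroptosis 3 rose and 3 fell: *Aifm2*, *Ncoa4* and *Lpcat3* rose by 1.08, 0.98 and 0.66, and *Alox5*, *Por* and *Acsl4* fell by 1.56, 1.07 and 0.71 on the log2 scale.

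**Figure D5:**
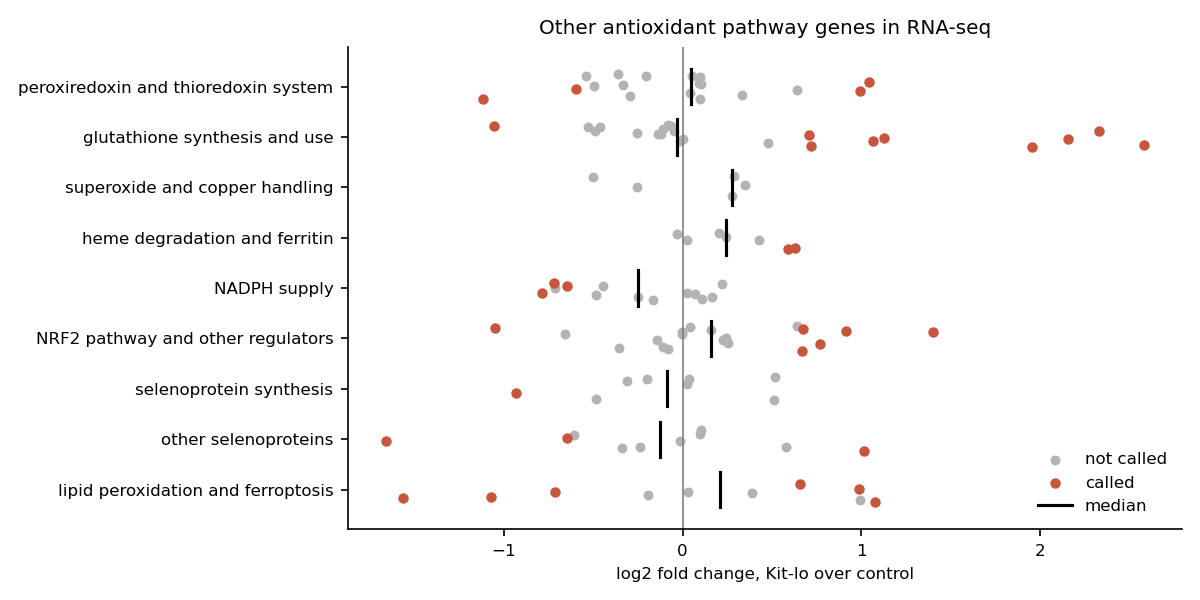
Log2 fold change of CFU-E Kit-lo over control CFU-E (horizontal axis) for each tested gene of 9 further antioxidant lists, in red for DEGs and grey for others, with a black bar at the list median. Medians lie near 0, from -0.25 to 0.28, and most DEGs of the glutathione list lie to the right.

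In the m6A capture 116 of the 123 further genes were tested, of which 5 (4.31%) were higher and 14 (12.1%) lower in IP, beside 7.9% and 7.86% of all tested genes, with a median of -0.16. *Acsl4* and *Foxo3* were higher, with log2 fold changes of 1.87 and 1.28, as were *Idh1* with 1.34, *Rpia* with 1.07 and *Rpe* with 0.99. *Foxo3* was at 27.7 and 42.4 CPM in input and at 85.1 and 84.4 CPM in IP. *Glrx5* was the lowest, at 1534 and 1705 CPM in input and 166 and 168 CPM in IP, a log2 fold change of -3.28 ± 0.24 (SE), and *Srxn1*, which repairs peroxiredoxins, followed with -2.44. *Gch1*, *Selenoo*, *Idh2* and *Nfe2* were lower with log2 fold changes of -1.71, -1.53, -1.37 and -1.20.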

How the data were processed

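Reads of RNA-seq and m6A capture were trimmed with fastp 0.23.4 and quantified with kallisto 0.48.0 (versions as in the submitters' processing notes) on mm10 and summed by gene with tximport. The authors deposited the resulting estimated counts without normalization, with a column for each library. The values are whole numbers, and columns that match no sample numbered 0. The RNA-seq used Smart-seq2 and the m6A capture SLIM-seq, whose primer holds a molecular identifier. Whether it was used in counting is not given in the sources used here. The 6 ProE samples of the 16 in the series were not analysed here.

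Tests on these counts used edgeR 4.0.16 under R 4.3.3 (filterByExpr, TMM, glmQLFit, glmQLFTest, Benjamini-Hochberg adjustment over all genes tested), a fit for each experiment, without a block. Of 15386 and 13490 genes, 11979 and 11447 were tested, with a biological coefficient of variation of 19.1% and 21.9%. Standard errors are the log2 fold change divided by the square root of F, and 95% intervals use its degrees of freedom. The scripts were first tested on simulated data. Shares were compared by exact permutation tests over libraries (scipy 1.17.1). Transcript lengths and coordinates come from GENCODE M21 on GRCm38 (99.9% of symbols matched) and promoters from RefSeq (8 of 10 genes matched). Levels across genes use mean annotated lengths. The protocols' ratio used a pseudocount of 0.5 CPM. DESeq2 1.42.0, other scalings, filters, fold rules, a replicate block and each library left out were alternatives.

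The 10 genes, the lists and the tests were chosen with earlier results of these data known. From each list, RNA-seq names are limited to the top 3 risers and top 3 fallers among DEGs whose average log2 CPM reached 2, and m6A names to 2 called genes in each direction. *Alox5*, *Keap1*, *Nfe2*, *Nfe2l2* and *Rpe* were added after their values were seen, to complete short counts or to set a member beside its relative. PCR copies are not independent molecules, so counts alone do not give the precision, which was taken from the spread between libraries.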

Additional observations from a re-analysis of the deposited data

How the results depend on the processing

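In RNA-seq 1 of the 10 genes was called higher and 0 lower. The count called higher was 0 in a test against a fold of 1.5 and 3 without a fold threshold, and ran from 0, without control replicate 3, to 2, without CFU-E Kit-lo replicate 1, with each library left out. The count called lower was 1 with upper quartile scaling and with no filter, 2 without a fold threshold, and ran from 0 to 1 with each library left out, 1 being reached on removal of control replicates 1 or 3, or of CFU-E Kit-lo replicates 1 or 2. In the capture 1 gene was called lower and 0 higher. The count lower was 2 with DESeq2, with library size only and with no filter, where *Gpx1* joined *Gclm*, and ran from 1 to 3 with each library left out, the latter without IP replicate 2, where the lone IP library is assumed to vary like the others. Same-numbered libraries were not given as pairs in the labels. Their deviations correlated with r of 0.0344, -0.017 and -0.0719 in RNA-seq and 0.205 in the capture, where 2 pairs cannot tell. With a replicate block the RNA-seq counts stayed at 1 and 0, and the capture had 1 gene higher, *Cat*, and 3 lower, *Gclm*, *Gpx1* and *Txn1*.

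Of the log2 fold changes, 133 of 149 in RNA-seq and 106 of 117 in the capture kept their direction and their call. In RNA-seq this call needs both the fold and the adjusted p, so a change on adjusted p alone does not show in it. On the adjusted p alone *Sod1* passed in 9 of 14 RNA-seq alternatives and *Gclc* in 11 of 14. Genes whose log2 fold change turned its sign did not pass in any setting of that experiment. *Cat* was -0.021 with upper quartile scaling and -0.0009 with no filter, and ran from -0.023 to 0.068 with each library left out, the lowest without CFU-E Kit-lo replicate 1. *Txn1* was 0.018 with library size only. With each library left out *Gclm* ran from -0.013, without CFU-E Kit-lo replicate 3, to 0.176, and *Hmox1* from -0.182, without control replicate 2, to 0.582. In the capture, with each library left out, *Sod1* ran from -0.148, without input replicate 1, to 0.767, and *Gpx4* from -0.385 to 0.047, the latter without IP replicate 1, and *Gpx4* was 0.0055 with library size only. *Gclm* in the capture stayed between -3.38 and -2.75 and was called under all 12 alternatives with a value. The differences in the 3 shares kept their sign in every alternative. The cause of the changes was not tested.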
